A study of Mus musculus with 24 samples.

Results

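Livers labelled as hepatocyte double knockouts of NEMO and JNK1, from untreated mice aged 8 weeks, were compared with livers of the same age labelled as knockouts of NEMO alone. The members were the 3 livers whose titles name the NEMO/JNK1 double knockout and the 3 whose titles name the NEMO knockout, 6 of the 24 livers of the series. The series holds 8 groups of 3 mice, and the other 18 livers came from mice aged 52 weeks, mice given the carcinogen diethylnitrosamine (DEN), and mice with a ligated bile duct. Both 8-week groups were untreated by label and both are labelled as NEMO knockouts, so no group labelled as having normal NEMO entered the comparison. Per the labels, the strains were built from Alb-Cre mice and floxed alleles. The albumin promoter drives the Cre recombinase in cells of the hepatocyte lineage, so liver cells outside that lineage keep both genes by design. The strain made deficient in Jnk2 (Mapk9) is not named in either 8-week label. All 3 NEMO mice carry one animal-series prefix and all 3 NEMO/JNK1 mice another, so genotype and animal series cannot be told apart. In bulk liver RNA, fewer cells of a type and less RNA per cell cannot be told apart.

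NEMO, encoded by Ikbkg, is the scaffold of the IkB kinase (IKK) complex, which releases NF-kB to the nucleus after TNF and other signals. JNK1, encoded by Mapk8, is a stress-activated kinase that phosphorylates c-Jun and other AP-1 factors downstream of the same receptors. Mice without NEMO in hepatocytes are known for spontaneous hepatocyte death, inflammation and liver tumours, and the series title names the role of JNK1 and JNK2 in that process.

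Expression was read on 1 array per liver as log2 values, in which a step of 1 is a 2-fold change. The table gave 18820 genes with a single symbol, and the median of these genes on an array ran from 5.23 to 5.37. Within a group the arrays correlated across genes with r between 0.968 and 0.987, and arrays of different groups with r between 0.965 and 0.988. Hepatocyte markers were near the top of the scale in all 6 livers. Alb, encoding albumin, read 13.23 to 13.25, and the mean of the 6 hepatocyte markers was 12.53 to 12.62 in NEMO livers and 12.44 to 12.51 in NEMO/JNK1 livers.

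Of the 6 livers, 3 stood apart. The library labelled NEMO replicate 3 held 196 genes at least 2-fold above all other 5 livers, led by genes of skeletal muscle. A list of 18 muscle genes, written after these values were seen, had a mean of 8.56 in that liver and 3.59 to 3.70 in the others. Its values for Myh1, a fast myosin heavy chain, Mb, encoding myoglobin, and Acta1, skeletal alpha-actin, were 9.75, 10.38 and 11.18. Their levels in the other 5 livers reached at most 2.80, 3.66 and 4.65. Reg1 and Ctrb1, of the exocrine pancreas, read 6.00 and 5.82 there, while Try4 and Cpb1 of the same organ read 1.95 and 2.75.

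The library labelled NEMO/JNK1 replicate 2 held 219 genes at least 2-fold above the other 5 livers, with neutrophil and Kupffer cell genes at the head. S100a8 and S100a9, calprotectin subunits of neutrophils, read 8.46 and 8.83 against at most 5.09 and 5.38 elsewhere. Marco, a scavenger receptor of macrophages, read 10.81 against at most 7.14. The library labelled NEMO/JNK1 replicate 3 held 206 such genes, among them Psca at 10.02 (at most 3.59 elsewhere), Sfrp5, a secreted Wnt inhibitor, at 8.37 (at most 3.79) and Vil1, encoding villin of the brush border, at 8.61 (at most 5.45). In the same liver the mean of the 5 sinusoidal endothelial markers was 6.54 against 8.35 to 8.71 in the others, and Lyve1 read 5.61 against at least 7.57. The mean of the longer list of 21 endothelial genes was 6.98 there against 7.67 to 7.92. Not all endothelial genes were low in it, since Flt1 read 7.48, the highest of the 6 livers, Pecam1 7.81 and Cdh5 8.95. NEMO replicates 1 and 2 and NEMO/JNK1 replicate 1 held 21, 54 and 6 such genes. Many of the results that move with these livers are given with and without them below.

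**Figure D1:**
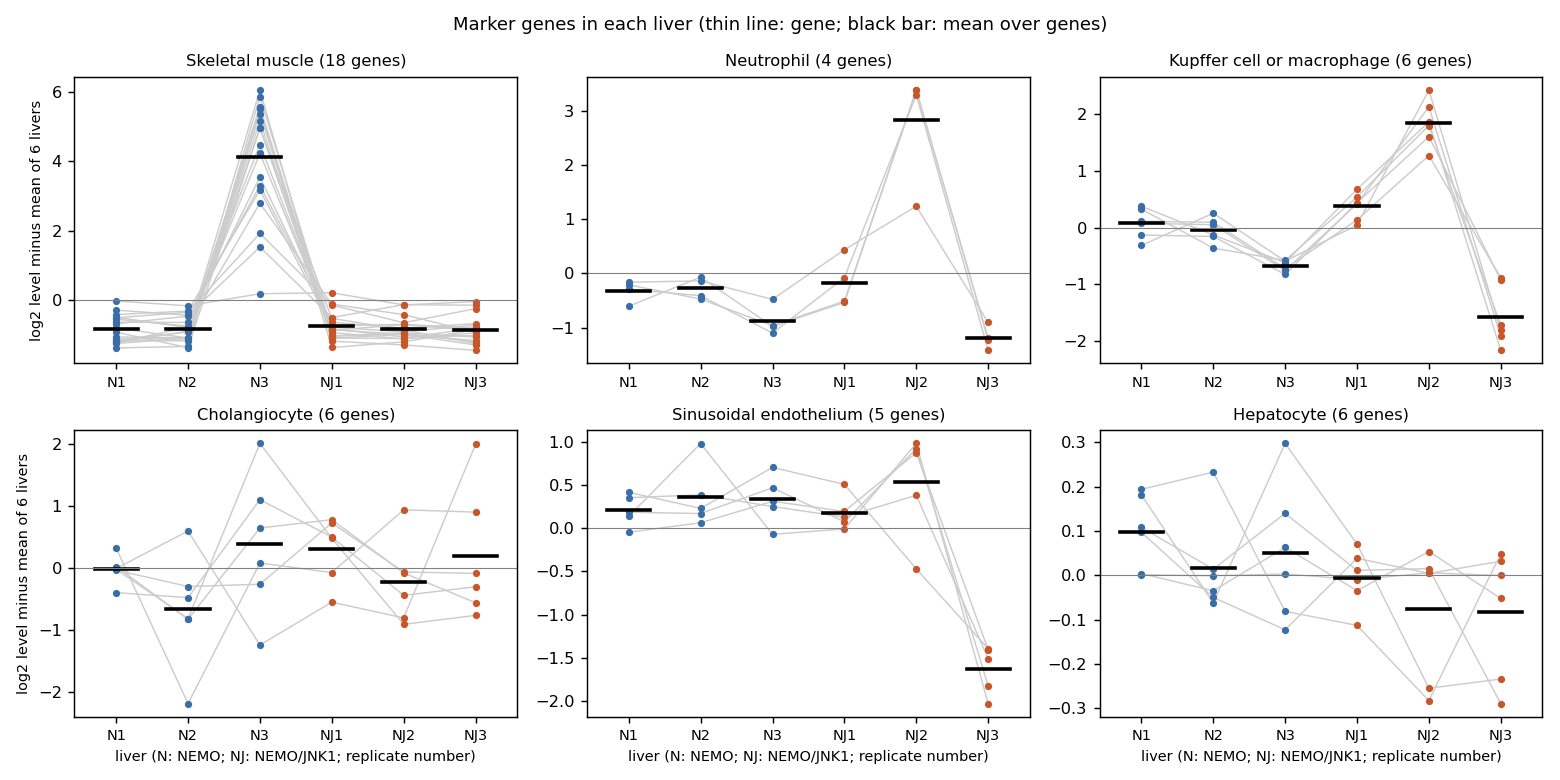
Log2 level of each marker gene minus its mean over the 6 livers (vertical axis) in each liver (horizontal axis; N is NEMO, NJ is NEMO/JNK1), with a black bar for the mean over genes. The skeletal muscle genes stand out in NEMO replicate 3, the neutrophil and Kupffer cell markers in NEMO/JNK1 replicate 2, and the sinusoidal endothelial markers are lowest in NEMO/JNK1 replicate 3.

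The targeted genes were read first. Mapk8 read 6.82, 6.68 and 6.50 in livers labelled NEMO and 6.03, 5.72 and 6.41 in livers labelled NEMO/JNK1. The 2 groups did not overlap, but NEMO/JNK1 replicate 3 lay close to the lowest NEMO liver. The mean difference was -0.61 (SE 0.20, 95% confidence interval -1.09 to -0.14), and its limma adjusted p of 0.602 did not pass over all genes. Without a single liver it ranged from -0.79 to -0.45. Transcript from cells other than hepatocytes and from outside the floxed part is read by the same probe set, and their shares were not tested.

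Ikbkg read 7.26, 7.16 and 6.80 in livers labelled NEMO and 6.97, 6.76 and 7.02 in livers labelled NEMO/JNK1, so the groups overlapped. These values lay within the 6.72 to 7.37 of the livers labelled JNK knockout after DEN, which keep NEMO by label. At 52 weeks the triple knockouts read 6.43 to 6.47, below all 6 livers aged 8 weeks. The Ikbkg level at 8 weeks therefore did not show the loss that the label gives, and the deleted part of the gene is not given in the sources used here. Mapk9, encoding JNK2, read 7.99 to 8.53 in NEMO and 8.28 to 8.51 in NEMO/JNK1 livers. It lay between 2.82 and 3.51 in the other 18 livers, those labelled control included, so the 8-week comparison was the one with Mapk9 transcript at this level.

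**Figure D2:**
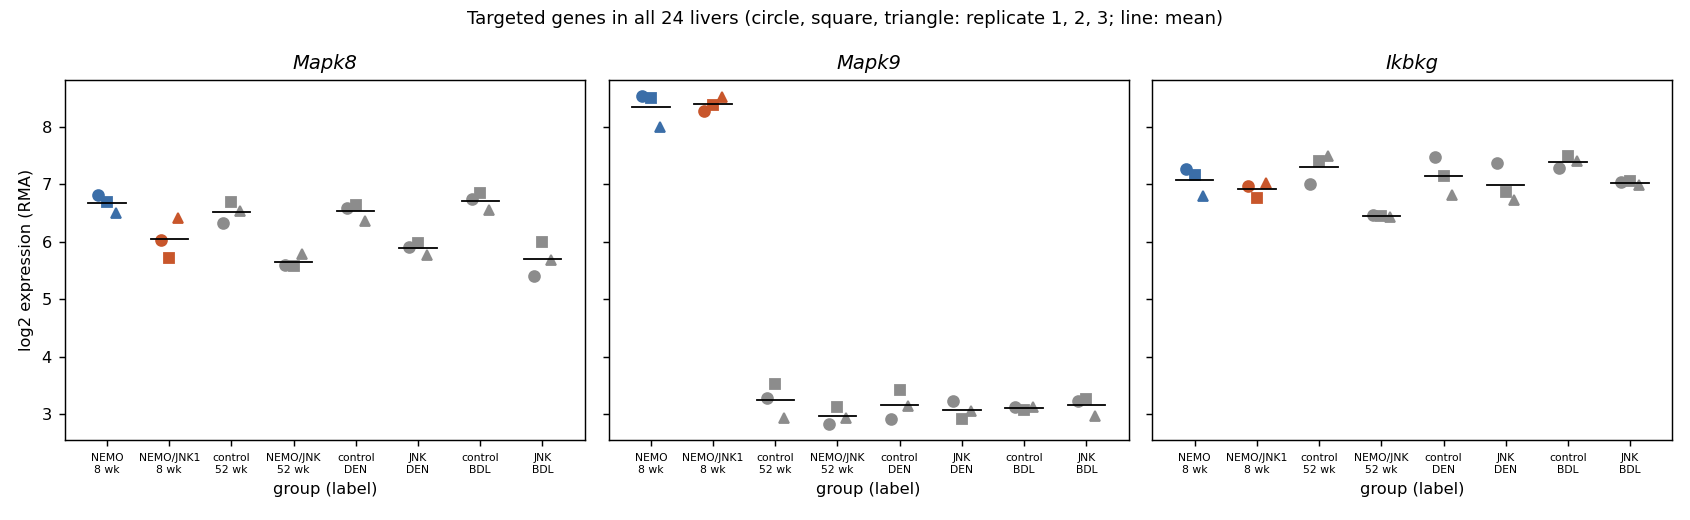
Log2 expression of the targeted genes Mapk8, Mapk9 and Ikbkg (vertical axis) in each of the 24 livers, by group (horizontal axis), with a line for each group mean. Mapk8 is lower in livers labelled NEMO/JNK1 than in those labelled NEMO, Ikbkg overlaps between them, and Mapk9 is at least 7.99 in these 6 livers and at most 3.51 in the others.

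Across the genome, no gene passed the test. Of 18820 genes, 0 (0%) reached an adjusted p under 0.05 in limma on the 6 arrays, and the smallest adjusted p was 0.0800, shared by Usp2, Ctse and Mogat1. At an unadjusted p under 0.05 there were 1442 genes (7.66%), 654 of them higher in NEMO/JNK1 livers (3.48%) and 788 lower (4.19%). Down-weighting divergent arrays called 2 genes, Ctse and Usp2. When the same model was fitted to all 24 arrays of the series, so that the spread came from all 8 groups, 57 genes (0.303%) passed, 19 higher (0.101%) and 38 lower (0.202%). That fit assumes that untreated young livers vary as much as the treated and old ones, and it is named below as the all-array fit. It tests the same difference between the same 6 livers and changes only the spread. For genes chosen by that difference, passing it is therefore no independent support. To describe the largest differences, genes at an unadjusted p under 0.01 and at least 2-fold apart were listed. There were 36 higher (0.191%) and 39 lower (0.207%), of which 30 also passed the all-array fit, and the split was 22 higher and 52 lower when each array was centred on its median. Groups did not overlap for 1262 genes that were higher (6.71%) and 1442 that were lower (7.66%), all 75 genes of the 2-fold rule among them. This rule is a description and not a call, and its count and its split moved with single livers. It gave 134 genes without NEMO replicate 3 (38 higher and 96 lower) and 127 without NEMO/JNK1 replicate 1 (64 and 63). It gave 186 without NEMO/JNK1 replicate 3 (141 and 45), 61 without NEMO replicate 2 (17 and 44) and 50 without NEMO/JNK1 replicate 2 (26 and 24).

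Among genes past the 2-fold rule, the largest difference was in Ctse, encoding cathepsin E, an intracellular aspartic protease of gastric and immune cells. It read 9.26, 8.50 and 9.10 in NEMO livers and 4.56, 5.65 and 4.52 in NEMO/JNK1 livers. Every double knockout was thus over 2 log2 units below every single knockout, and the fold was 16.5 (log2 difference -4.04, SE 0.35, limma adjusted p of 0.0800 on 6 arrays and 0.00131 in the all-array fit). Without a single liver the difference lay between -4.41 and -3.85. In the other 18 livers Ctse was above 8 only in the triple knockouts at 52 weeks, at 8.35 to 9.08.

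Usp2, a deubiquitinase whose transcript cycles with the circadian clock, separated the groups with little spread inside either. NEMO livers read 6.72, 6.93 and 6.66, and NEMO/JNK1 livers 5.33, 5.35 and 5.38. The difference of -1.42 (SE 0.12) had a limma adjusted p of 0.0800 on 6 arrays and 0.228 in the all-array fit. Usp2 varied widely inside other groups, from 5.32 to 7.51 in JNK knockouts after DEN and from 5.35 to 7.64 in controls after ligation. The time of day at which livers were taken is not given in the sources used here, and its part was not tested.

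Mogat1, encoding a monoacylglycerol acyltransferase that makes diacylglycerol, was higher in livers labelled NEMO/JNK1. It read 3.80, 3.32 and 3.73 in NEMO livers and 5.83, 5.42 and 5.68 in NEMO/JNK1 livers, a 4.07-fold difference (log2 2.02, SE 0.18, all-array limma adjusted p = 0.0271). The groups lay well apart, and the difference was 1.88 to 2.13 without a single liver. Plin4, a coat protein of lipid droplets, went the other way, from 6.07, 5.75 and 6.55 to 4.50, 4.61 and 4.72. Its log2 difference of -1.51 (SE 0.21) did not pass the all-array fit, at a limma adjusted p of 0.161.

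Receptors and signal transducers were among the leading higher genes. Lepr, the leptin receptor, read 5.16, 4.65 and 4.63 in NEMO and 6.62, 6.51 and 6.13 in NEMO/JNK1 livers (log2 difference 1.61, all-array adjusted p = 0.18, limma). Smo, the signal transducer of the Hedgehog pathway, read 6.01, 6.00 and 6.72 against 7.83, 7.74 and 8.11 (1.65, adjusted p = 0.0188). Nrp2, a co-receptor for semaphorins and VEGF-C, read 6.51, 6.41 and 6.10 against 7.57, 7.50 and 7.98 (1.34, adjusted p = 0.0023). None of these 3 genes overlapped between groups, and Smo and Nrp2 rose in the all-array fit. Adgrf1, an adhesion G protein-coupled receptor, read 3.11, 3.50 and 4.60 against 5.96, 6.81 and 5.35.

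Transport and secretion genes were also among the higher leading genes. Slc34a2, a sodium-phosphate cotransporter, read 3.88, 3.61 and 3.81 in NEMO and 5.19, 5.38 and 6.42 in NEMO/JNK1 livers (log2 difference 1.90, limma all-array adjusted p = 0.0023). Serpina12, the adipokine vaspin, had the largest difference of the 12, 2.65 (SE 0.46), with 5.13, 3.34 and 4.87 against 7.43, 6.88 and 6.99. It did not pass the all-array fit (limma adjusted p = 0.131). The remaining leading genes of this direction were Glb1, lysosomal beta-galactosidase (1.17), H2bc18, a histone H2B (1.06), Psrc1, a spindle protein (1.14), and Glipr2 (1.15). Of the 12 leading higher genes, 7 passed the all-array fit. They were chosen for the same difference that this fit tests, so that number is not independent support.

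Metabolic enzymes were among the leading lower genes. Cyp2c55, a cytochrome P450, read 8.73, 6.94 and 7.85 in NEMO livers and 5.12, 4.69 and 3.97 in NEMO/JNK1 livers, a 9.50-fold difference (log2 -3.25, SE 0.49, limma all-array adjusted p = 0.0233). Coq5, a methyltransferase of coenzyme Q synthesis, read 9.28, 9.61 and 9.23 against 8.27, 8.01 and 8.62. Adssl1, an adenylosuccinate synthase of the purine cycle, read 8.09, 7.70 and 7.38 against 6.68, 6.25 and 6.67. Both fell in the all-array fit, with limma adjusted p-values of 0.03 and 0.0314. Gstt3, a glutathione transferase, read 8.65, 8.79 and 7.92 against 7.11, 5.89 and 6.17 and did not pass it (limma adjusted p = 0.0751).

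Other lower leading genes have different roles. Coro6, an actin-binding coronin, read 6.34, 8.08 and 7.54 against 4.93, 4.59 and 4.83 (log2 difference -2.54, limma all-array adjusted p = 0.0023). Ccr3, the eotaxin receptor, read 5.12, 4.88 and 4.80 against 3.27, 3.71 and 4.02 (-1.26, adjusted p = 0.0233). Bcl2l13, a mitochondrial BCL2-family protein, read 8.13, 8.17 and 8.40 against 7.45, 7.10 and 7.13 (-1.01, adjusted p = 0.00548). All 3 fell in the all-array fit with no overlap between groups, as did Fndc10 (-1.20, adjusted p = 0.0051). Trhde, an ectoenzyme that degrades thyrotropin-releasing hormone, stood at -1.38 and did not pass it (adjusted p = 0.226). In all, 8 of the 12 leading lower genes passed, and these too were chosen for the difference that the fit tests.

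**Figure D3:**
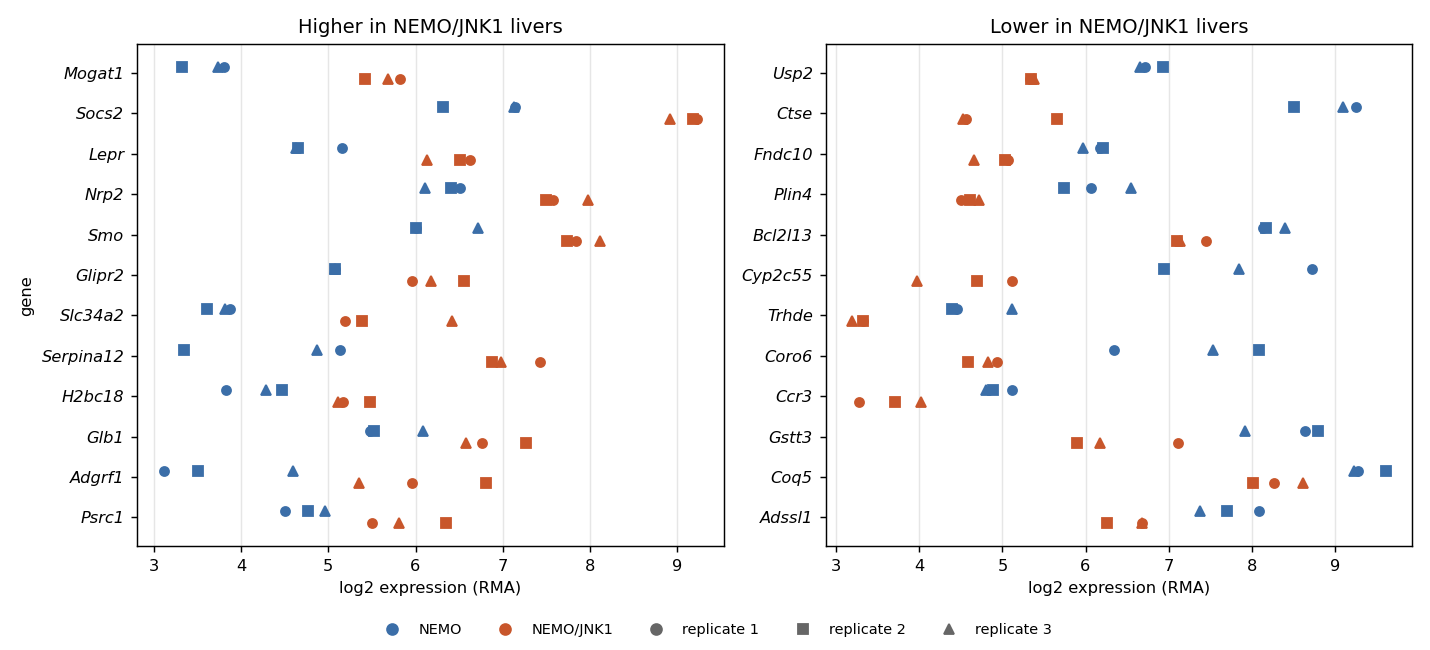
Log2 expression (horizontal axis) of the 12 leading higher and 12 leading lower genes (vertical axis) in each of the 3 NEMO and 3 NEMO/JNK1 livers, each point a liver. The groups do not overlap for any of these 24 genes, and Ctse, Cyp2c55, Coro6 and Serpina12 have the largest differences in group mean.

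Socs2, a feedback inhibitor of growth hormone signalling induced by STAT5, was among the clearest of the higher genes. It read 7.14, 6.32 and 7.13 in NEMO livers and 9.23, 9.19 and 8.91 in NEMO/JNK1 livers, a 4.76-fold difference (log2 2.25, SE 0.25, limma all-array adjusted p = 0.0023). The 3 NEMO livers were the lowest of the whole series for this gene, since the other 18 read 7.71 to 9.54. Related genes were looked up after these values were seen. Cish, another STAT5-induced feedback inhibitor, read 6.10, 5.99 and 5.75 against 7.26, 6.46 and 7.47 (1.11, limma all-array adjusted p = 0.151). Bcl6, a repressor whose transcript STAT5 is known to lower, read 7.46, 6.99 and 7.32 against 6.56, 6.24 and 5.80 (-1.05, adjusted p = 0.379). Neither overlapped between groups, and neither passed the all-array fit. The receptor Ghr and the factor Stat5b differed by -0.25 and -0.03, and the STAT5 target Igf1 by -0.04. Bcl6 is also a member of the list of male-biased liver genes. In that list 18 of 21 means were lower in NEMO/JNK1 livers, with a median of -0.51 (-0.18 without NEMO replicate 3). Whether STAT5 activity differed was not tested.

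The promoters of Cish and Bcl6 are shown because both hold the letters TTCNNNGAA, the core of the STAT5 site, in the 300 bases around a transcript start that the table holds. Socs2 has no promoter there, so its letters were not read. The sequences are those of RefSeq on GRCm38.p6, given in the direction of transcription, with each match in capitals. The Cish promoter lies at chr9:107296409-107296708 on the plus strand and holds 2 matches. The Bcl6 promoter, from one of the 2 starts listed for this gene, lies at chr16:23981234-23981533 on the minus strand and holds 3, while the window at the other start holds 1.
Cish: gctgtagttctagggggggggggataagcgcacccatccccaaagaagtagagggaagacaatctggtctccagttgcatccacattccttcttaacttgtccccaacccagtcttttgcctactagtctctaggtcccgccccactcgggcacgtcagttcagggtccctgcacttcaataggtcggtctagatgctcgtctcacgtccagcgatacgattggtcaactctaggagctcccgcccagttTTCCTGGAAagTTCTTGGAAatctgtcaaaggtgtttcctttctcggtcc
Bcl6: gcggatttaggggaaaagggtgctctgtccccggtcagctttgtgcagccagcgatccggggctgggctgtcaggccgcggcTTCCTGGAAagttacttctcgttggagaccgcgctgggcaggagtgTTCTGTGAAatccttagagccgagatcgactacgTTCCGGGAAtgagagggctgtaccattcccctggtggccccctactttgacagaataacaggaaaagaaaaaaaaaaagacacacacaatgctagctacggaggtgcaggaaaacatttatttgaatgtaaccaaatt
A match is a description of the letters and not a bound site. TTCNNNGAA, which reads the same on both strands, occurred in 8.30% of all 32851 promoters of the table and in 9.06% of the 14739 tested genes with a promoter there. It occurred in 3 of the 32 genes past the 2-fold rule in the higher direction that had a promoter there, and in 3 of 30 in the lower direction. The AP-1 core TGANTCA and the E-box CACGTG, also the same on both strands, occurred in 7.81% and 7.15% of all promoters and in 7.92% and 9.57% of these tested genes. In the higher genes each occurred in 3 of 32, and in the lower genes each in 4 of 30.

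Gene lists were then read by counts and medians, with no test of a list. Over all genes the median difference was -0.003, and no list had a member past the adjusted test on the 6 arrays. List members at an unadjusted p under 0.05 are set against 3.48% of all genes higher and 4.19% lower, and members past the 2-fold rule against 0.191% and 0.207%.

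The kinase cascade itself differed little. Of 22 measured members of the JNK cascade, 2 were higher at an unadjusted p under 0.05 (Dusp16, a JNK phosphatase, 0.51, and Map4k4, 0.46) and 1 was lower, Mapk8. Of 21 AP-1 and immediate early genes, none reached that level in either direction, and their median was 0.19. Jun read 8.34, 8.01 and 7.91 in NEMO livers and 7.94, 7.98 and 7.77 in NEMO/JNK1 livers, with overlap. Fos read 4.65, 4.35 and 4.89 against 4.86, 4.85 and 4.94, also with overlap.

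NF-kB target genes stood mostly above. Of 27 measured, 25 had a higher mean in NEMO/JNK1 livers, 9 were higher at an unadjusted p under 0.05 and 1 was lower, with a median of 0.30. Cxcl1, a neutrophil chemoattractant, read 5.31, 5.20 and 5.59 in NEMO livers and 6.21, 6.22 and 5.90 in NEMO/JNK1 livers. Tnfaip3, encoding the NF-kB inhibitor A20, read 5.17, 5.17 and 4.96 against 5.79, 5.73 and 6.42. Both were without overlap, at differences of 0.75 and 0.88. Icam1, an adhesion molecule for leukocytes, differed by 0.80, Csf1 by 0.57 and Ccl2 by 0.84. Sod2, a mitochondrial superoxide dismutase and NF-kB target, was lower in every NEMO/JNK1 liver (-0.41). The mean of the list was 6.37, 6.26 and 5.99 in NEMO livers and 6.66, 6.87 and 6.42 in NEMO/JNK1 livers, and it was highest in NEMO/JNK1 replicate 2, the liver rich in neutrophil markers. The part of those cells in this list was not tested. Without NEMO replicate 3 the list median was 0.20, and without NEMO/JNK1 replicate 3 it was 0.47.

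Among the 14 measured IKK and NF-kB subunits, the 2 at an unadjusted p under 0.05 were both higher and both belong to the non-canonical arm. Nfkb2 read 5.69, 5.38 and 5.55 in NEMO livers and 6.31, 6.23 and 6.08 in NEMO/JNK1 livers, a log2 difference of 0.67. Relb, its partner, read 4.62, 4.77 and 4.63 against 5.13, 5.16 and 4.92, a difference of 0.40. Neither gene overlapped between groups, and neither passed the all-array fit (limma adjusted p = 0.239 and 0.504).

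Of 30 apoptosis and necroptosis genes, Bid, the BH3-only protein that caspase-8 cleaves, was the one past the 2-fold rule. It read 7.55, 7.40 and 6.81 in NEMO livers and 5.89, 6.26 and 6.32 in NEMO/JNK1 livers, a 2.14-fold lower level (log2 difference -1.10, SE 0.23, limma all-array adjusted p = 0.0668). The survival proteins Mcl1 and Bcl2 were higher in all 3 NEMO/JNK1 livers, at 0.54 and 1.06. The value of Bcl2 depended on 1 liver, reading 7.87 in NEMO/JNK1 replicate 3 and 6.10 and 6.56 in the others, and was 0.55 without it. The list as a whole had a median of 0.10.

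Acute phase genes differed in both directions. Hp, encoding haptoglobin, read 11.39, 10.92 and 11.26 in NEMO livers and 11.90, 12.21 and 11.98 in NEMO/JNK1 livers. It was the member of this list that rose in the all-array fit (log2 difference 0.84, limma adjusted p = 0.00327). Orm3, an orosomucoid, read 7.45, 8.01 and 6.16 against 5.33, 5.01 and 4.87, a difference of -2.13 that passed the 2-fold rule. Of 28 measured genes, 7 were higher and 2 lower at an unadjusted p under 0.05, with Cp, ceruloplasmin (0.47), Stat3 (0.34) and Itih4 (0.36) among the higher. Without NEMO/JNK1 replicate 2, the liver with the highest neutrophil markers, the list median went from 0.23 to -0.004.

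Interferon-inducible genes had a median of 0.33, with 4 of 33 higher and none lower at an unadjusted p under 0.05. These were the GTPases Gbp2 (0.96), Gbp7 (0.70), Gbp3 (0.80) and Iigp1 (0.30). Gbp2 read 6.49, 5.98 and 6.13 in NEMO livers and 7.05, 7.36 and 7.08 in NEMO/JNK1 livers, without overlap. Without NEMO replicate 3 the list median was 0.07. That liver read lowest of all 6 for Ifit1, an antiviral interferon target, at 5.45 against 7.46 to 8.37.

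Genes of neutrophils and macrophages had medians that rested on single livers. Neutrophil genes had the highest median of the 35 lists, 0.87, with 2 of 15 higher at an unadjusted p under 0.05. These were Lcn2 (1.73) and Camp (0.63). Lcn2 was also the member with the highest difference in the NF-kB target and acute phase lists, so these lists are not separate. The mean of the neutrophil list was 6.75 in NEMO/JNK1 replicate 2, 4.75 and 4.29 in the other NEMO/JNK1 livers and 4.17 to 4.59 in NEMO livers. Its median without replicate 2 was -0.03. Macrophage and Kupffer cell genes followed with 0.61, and 1 of 24 was higher at that level. Their means were 7.39 to 7.67 in NEMO livers and 8.14, 9.35 and 6.98 in NEMO/JNK1 livers, so the groups overlapped. The median was 0.05 without NEMO/JNK1 replicate 2 and 1.19 without replicate 3. Neither median stayed clear of 0 without NEMO/JNK1 replicate 2.

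T and NK cell genes had a median of 0.33, which stayed between 0.25 and 0.54 without any single liver. Of 22 measured, 4 were higher and 1 lower at an unadjusted p under 0.05. Cd8b1 and Cd8a, the chains of the CD8 co-receptor, read 4.47, 4.15 and 4.45, and 5.10, 4.49 and 4.99 in NEMO livers. In NEMO/JNK1 livers they read 4.96, 5.34 and 5.14, and 5.49, 5.50 and 5.36, without overlap for either. Nkg7, a granule protein of cytotoxic cells, differed by 0.62. Klrb1c, of NK cells, differed by -0.44 at a low level. It read 3.42, 3.19 and 3.30 in NEMO livers and 2.93, 2.99 and 2.65 in NEMO/JNK1 livers. Chemokines and their receptors had a median of 0.43, with 6 of 34 higher and 2 lower, the latter Ccr7 (-0.57) and Cxcl14 (-1.08).

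Detoxification genes had the lowest median of the 35 lists. Of 37 measured cytochrome P450 genes and xenobiotic receptors, 32 had a lower mean in NEMO/JNK1 livers, 9 were lower at an unadjusted p under 0.05 and none higher, and the median was -0.57. Past the 2-fold rule were Cyp2c55, Cyp3a25, Cyp2b10 and Cyp2d9, of which Cyp2c55 and Cyp3a25 fell in the all-array fit. Cyp3a25 read 11.38, 11.55 and 11.15 in NEMO livers and 10.66, 10.09 and 10.06 in NEMO/JNK1 livers (-1.09, limma adjusted p = 0.03). Cyp2b10, the classic target of the receptor CAR, read 7.77, 6.68 and 9.45 against 6.16, 4.35 and 4.91 (-2.83). Its difference was -2.08 without NEMO replicate 3, the liver with muscle genes. Nr1i2, the xenobiotic receptor PXR, differed by -0.69 with overlap. The list median stayed between -0.67 and -0.42 without any single liver. The mean of the list was 8.72, 8.21 and 8.60 in NEMO livers and 8.27, 7.61 and 7.68 in NEMO/JNK1 livers. It was lowest in NEMO/JNK1 replicates 2 and 3, which stood apart in other genes, and the groups overlapped through NEMO/JNK1 replicate 1. The part of those other differences was not tested.

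Glutathione and NRF2 genes followed the same direction, with 4 of 25 lower and none higher at an unadjusted p under 0.05. These were the glutathione transferases Gstt3 (-2.06), Gstm2 (-0.85), Gstt1 (-0.63) and Gstm3 (-0.57). The median of the list was -0.22. It was -0.54 without NEMO replicate 3 and -0.02 without NEMO replicate 2.

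Fatty acid oxidation and PPARalpha target genes were lower across many members. Of 35 measured, 29 had a lower mean in NEMO/JNK1 livers, 10 were lower and 1 higher at an unadjusted p under 0.05, and the median was -0.38. Acaa1a, a peroxisomal thiolase, read 7.47, 7.37 and 7.63 in NEMO livers and 6.96, 6.58 and 7.02 in NEMO/JNK1 livers. Hadhb, a subunit of the mitochondrial trifunctional protein, differed by -0.48. The medium-chain, short-chain and long-chain acyl-CoA dehydrogenases Acadm, Acads and Acadl differed by -0.44, -0.46 and -0.38, each without overlap. Vnn1, a pantetheinase and PPARalpha target, was the exception at 0.96. Without any single liver the median stayed between -0.48 and -0.24. The list mean was 8.97, 8.80 and 9.15 against 8.88, 8.30 and 8.85, lowest in NEMO/JNK1 replicate 2.

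Cholesterol genes had a median of -0.44 (-0.23 without NEMO replicate 1 or without NEMO/JNK1 replicate 3), with 19 of 20 means lower in NEMO/JNK1 livers but 2 at an unadjusted p under 0.05, Tm7sf2 (-1.0) and Mvk (-0.50), both enzymes of sterol synthesis. Bile acid genes had a median of -0.33, with 4 of 32 lower and none higher. Among these 4 were Abcb4, the phospholipid exporter of bile (-0.66), Amacr (-0.53) and Nr0b2, the bile acid-induced repressor SHP (-0.97). In lipid synthesis and storage, 5 of 34 were lower and 1, Mogat1, higher. The lower members were Plin4, Plin5 (-0.84), Cidec (-0.92), Thrsp (-1.15) and Insig2 (-0.71). Plin4, Plin5 and Cidec coat or enlarge lipid droplets.

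**Figure D4:**
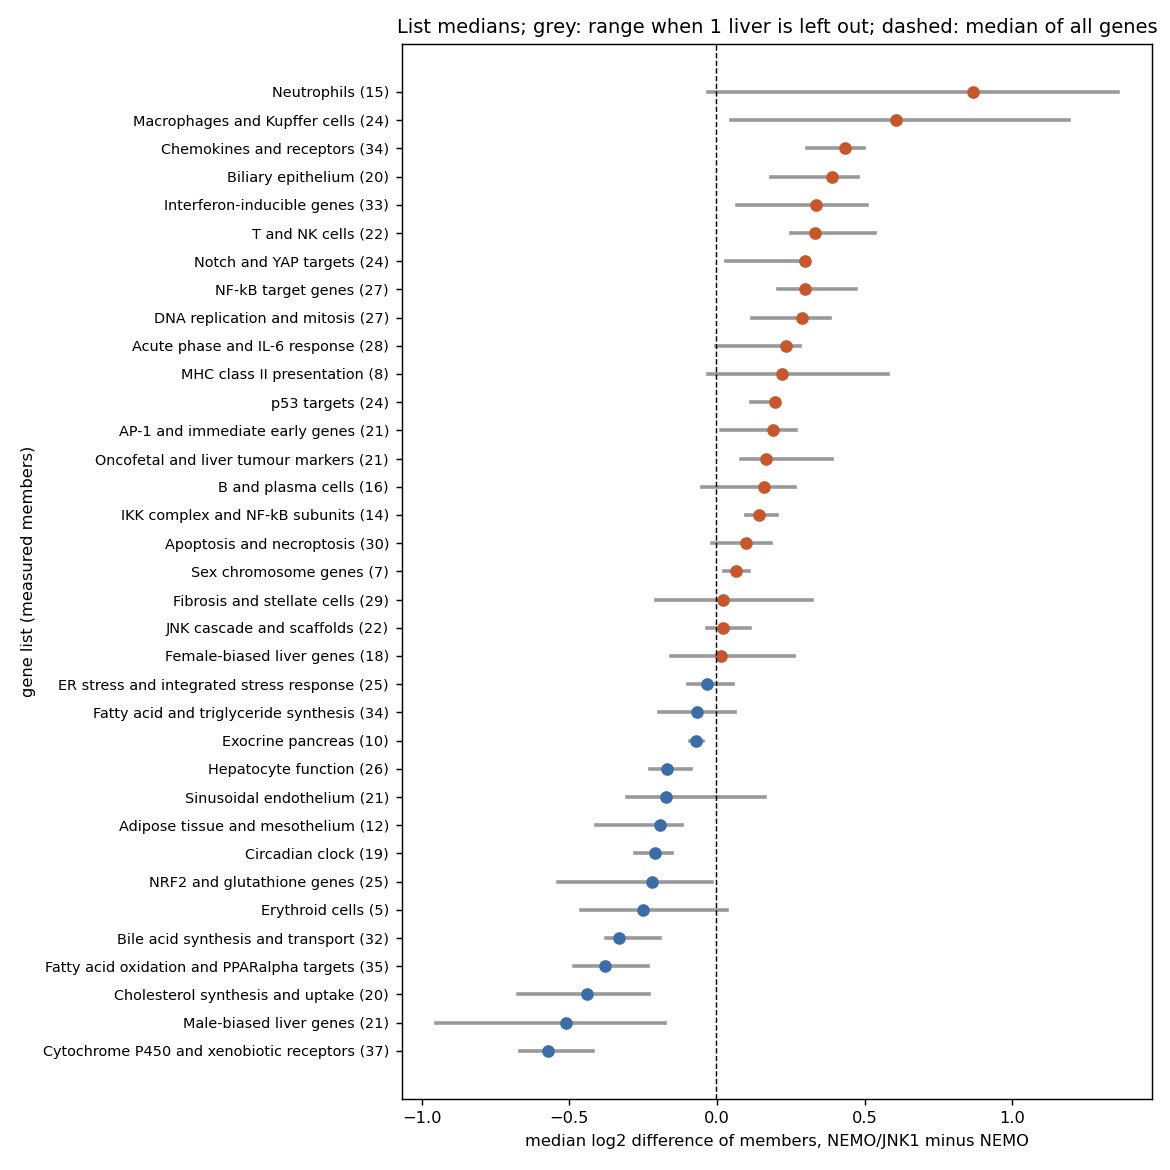
Median log2 difference of the measured members of each gene list, NEMO/JNK1 minus NEMO (horizontal axis), by list (vertical axis, with the number of members), with a grey range over the fits that leave out 1 liver and a dashed line at the median of all genes. Neutrophil and macrophage genes have the highest medians and ranges that reach near 0, while cytochrome P450 genes have the lowest median and a range that stays at or below -0.42.

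Hepatocyte function genes had a median of -0.17, and 2 of 26 were lower at an unadjusted p under 0.05. These were Asl, the argininosuccinate lyase of the urea cycle (-0.91), and Cyp3a11 (-1.0, and -0.66 without NEMO/JNK1 replicate 3). Among genes with sex-biased expression in liver, the male-biased list had a median of -0.51, with Bcl6 and Cyp2d9 past the 2-fold rule, and the female-biased list 0.01. The male-biased genes varied most inside the NEMO group. Mup3, a major urinary protein, read 6.23, 8.42 and 11.78 in the NEMO livers and 9.89, 8.68 and 7.43 in the NEMO/JNK1 livers. Without NEMO replicate 3, the highest of these, the median was -0.18. The Y-linked gene Kdm5d read 5.86 to 6.60 in all 6 livers.

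Biliary and tumour-related genes were uneven across the double knockouts. Biliary genes had a median of 0.39 (0.18 without NEMO/JNK1 replicate 3), with 2 of 20 higher and none lower at an unadjusted p under 0.05. These were Onecut1, a factor of liver and bile duct development (1.66), and Slc5a1, a sodium-glucose cotransporter (1.61). The cholangiocyte markers were highest in different livers. Krt19 and Epcam were highest in NEMO replicate 3, at 7.33 and 5.86, where Sox9 was lowest, at 6.87. Sox9 was highest in NEMO/JNK1 replicate 3 at 10.12, Krt7 in NEMO/JNK1 replicate 1 at 5.76 and Tspan8 in NEMO/JNK1 replicate 2 at 6.45. Gpc3, glypican 3, an oncofetal proteoglycan of liver tumours, read 4.36, 3.91 and 4.91 in NEMO livers and 5.36, 6.71 and 9.68 in NEMO/JNK1 livers. Its difference of 2.86 was 1.64 without NEMO/JNK1 replicate 3. Sox4, a progenitor factor, read 5.47, 5.50 and 5.34 against 6.69, 6.55 and 8.49, above in all 3, and its difference of 1.80 was 1.18 without that liver. Afp, alpha-fetoprotein, read 4.02 to 4.60 and 3.99 to 4.76. Of the 21 measured oncofetal and tumour genes, 2 were higher and 1 lower at an unadjusted p under 0.05. The lower one was Ly6d, which read 11.07, 11.37 and 10.83 in NEMO livers and 10.38, 10.40 and 9.94 in NEMO/JNK1 livers (-0.85), without overlap.

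Notch and YAP genes had a median of 0.30, which was 0.03 without NEMO/JNK1 replicate 3. Ankrd1, a YAP target, read 4.92, 4.20 and 4.95 against 6.45, 5.15 and 8.95, and its difference of 2.16 became 1.11 without that liver. Yap1 itself was lower in all 3 NEMO/JNK1 livers (-0.41) and Notch2 higher (0.46). Replication and mitosis genes had a median of 0.29 with 25 of 27 means higher, of which 1, Rrm2, a ribonucleotide reductase subunit (0.59), was at an unadjusted p under 0.05. Of 24 p53 targets, 3 were higher at that level, Zmat3 (0.46), Phlda3 (0.84) and Gadd45a (0.88), while Cdkn1a, encoding p21, overlapped at -0.04. The difference of Gadd45a was 0.44 without NEMO/JNK1 replicate 3. Fibrosis genes had a median of 0.02, and Timp2, a metalloproteinase inhibitor, was the 1 of 29 at that level (0.99). Among 25 stress response genes of the endoplasmic reticulum, Nupr1 was higher (0.80) and Cth (-0.71) and Herpud1 (-0.54) lower, with a median of -0.03.

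Clock genes had a median of -0.21. Of 19 measured, 3 were lower at an unadjusted p under 0.05 and none higher, namely Usp2, Cry2 (-0.59), a repressor of the clock, and Ciart (-0.58). Cry2 read 6.78, 7.10 and 6.74 in NEMO livers and 6.22, 6.18 and 6.43 in NEMO/JNK1 livers, without overlap. Per1 read 6.57, 6.16 and 7.30 against 6.66, 6.90 and 6.32, with overlap. The lists not yet named had medians of 0.22 for MHC class II genes, 0.17 for oncofetal and tumour genes, 0.16 for B and plasma cells, -0.17 for sinusoidal endothelium and 0.07 for sex chromosome genes. The endothelial median was 0.16 without NEMO/JNK1 replicate 3. Erythroid, adipose or mesothelial, and exocrine pancreas genes had medians of -0.25, -0.19 and -0.07.

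The difference at 8 weeks was then set against the other knockout comparisons of the series by an interaction term over the 12 arrays of each pair. By label, those comparisons set knockouts of JNK1 and JNK2 after DEN (40 days) or ligation (28 days), or of NEMO, JNK1 and JNK2 at 52 weeks, against controls. Mapk9 was low in their controls as well as in their knockouts, as given above. No group is shared with the 8-week comparison. For DEN, 0 genes (0%) differed at a limma adjusted p under 0.05, with 837 at an unadjusted p under 0.05 and 0 in the all-array fit. Mapk8 differed by -0.64 after DEN, -1.02 after ligation and -0.87 at 52 weeks, and its 8-week difference of -0.61 did not differ from these beyond the test (limma adjusted p = 1, 0.641 and 0.659).

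For ligation, 12 genes (0.0638%) differed, and 3 of them were leading genes at 8 weeks. The leading genes were chosen for their 8-week difference, which is part of this term, so their number cannot be set against that share. Ctse differed by 0.76 after ligation against -4.04 at 8 weeks (difference -4.80, limma adjusted p = 0.0344). Cyp2c55 differed by 1.12 after ligation against -3.25 (difference -4.37, adjusted p = 0.0441). Mogat1 differed by -0.11 after ligation against 2.02 (difference 2.13, adjusted p = 0.0123). The count was 1 with dim genes left out, a gene with a higher difference at 8 weeks, so Ctse and Cyp2c55 were not called there, and Mogat1 was left out as dim. The ligated controls are of mixed animal series, 2 livers of one and 1 of the series of the ligated knockouts, and the part of this in the difference was not tested. The count ran from 3 to 35 without single livers, lowest without control replicate 1 and highest without control replicate 3 of the ligated mice.

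For the 52-week comparison, 451 genes (2.40%) differed, 99 with a higher difference at 8 weeks and 352 with a lower one. Centring each array gave 913, split into 634 and 279, and single livers left out gave 174 to 708. Of the 24 leading genes, 9 were among the 451. They were chosen for their 8-week difference, which is part of this term, so that number cannot be set against the 2.40%. Ctse was lower by 4.04 at 8 weeks, where the double knockout read 4.91 on average. At 52 weeks it was higher by 3.45, where the triple knockout read 8.75 and its controls 5.29 (limma adjusted p = 6.77e-05 for the difference of -7.50). Usp2 was at -1.42 and 1.88 in the 2 comparisons, Serpina12 at 2.65 and -2.17, and Mogat1 at 2.02 and -1.50. Each of these 4 genes thus had opposite directions at the 2 ages. Lepr differed in the same direction in both, by 1.61 and 2.33, as did Plin4, by -1.51 and -1.33, and Smo, by 1.65 and 0.92. Age, the knockouts compared, the state of Mapk9 and the animal series differ together between the 2 comparisons and cannot be told apart. The 8-week groups are of different animal series, whereas both 52-week groups are of one.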

How the data were processed

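The authors deposited log2 values of 1 Affymetrix array per liver, summarised by RMA per the submitters' processing notes. Whether the 24 arrays were normalised together is not given in the sources used here. Of 35556 probe sets, 21218 had 1 gene symbol, 1881 several and 12457 none in the platform annotation, and 21185 of the first matched RefSeq. For 1386 genes with several probe sets, the one with the highest mean over 24 arrays was used, giving 18820 genes. The difference was tested with limma 3.58.1 in R 4.3.3 (lmFit and eBayes, two-sided, Benjamini-Hochberg over all genes) on the 6 arrays, a script tested on simulated data. Precision is limited by having 3 arrays per group, and p-values measure the spread between those 3 mice.

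Genes named are Mapk8, Mapk9 and Ikbkg, then the 12 leading genes in each direction by called status and otherwise by smallest unadjusted p within the 2-fold rule, and up to 3 members of each of 35 gene lists. Names beyond the rule were chosen after their values were seen. The members, lists and tests were chosen with earlier results of these data known. Alternatives were array centring, quantile normalisation, leaving out genes with a mean under 5, all 24 arrays, the mean of probe sets, trended robust moderation, array weights, a replicate block and leaving out each liver. Medians of the marker sets were -0.21 for stellate cells, 0.42 for Kupffer cells and -0.66 for sinusoidal endothelium. They were 0.60 for T or NK cells, 1.10 for neutrophils and 0.25 for cholangiocytes. Without NEMO/JNK1 replicate 3 the stellate median was 0.22 and the endothelial one 0.14. Without NEMO/JNK1 replicate 2 the Kupffer cell median was -0.46 and the neutrophil one -0.23. The cholangiocyte median was -0.07 without NEMO/JNK1 replicate 1. That of T or NK cells stayed between 0.40 and 0.80 without any single liver. Replicate numbers did not pair the livers: same-numbered deviations correlated at 0.01, -0.02 and -0.07.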

Additional observations from a re-analysis of the deposited data

Results flagged for a closer look

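Differences between comparisons were found for 12 genes against bile duct ligation and for 451 against the 52-week comparison, by limma interaction terms over 12 arrays each. The leading genes were chosen for their 8-week difference, which is part of these terms. Among the leading genes, the 8-week minus ligation log2 difference was -4.80 for Ctse, -4.37 for Cyp2c55 and 2.13 for Mogat1. The 8-week minus 52-week log2 difference was -7.50 for Ctse, -1.53 for Ccr3, -3.35 for Coro6, -3.42 for Cyp2c55 and -1.39 for Fndc10. It was 3.52 for Mogat1, 4.82 for Serpina12, 2.09 for Socs2 and -3.30 for Usp2. Ccr3 differed by -1.26 at 8 weeks and 0.27 at 52 weeks, Coro6 by -2.54 and 0.82, Fndc10 by -1.20 and 0.19, and Socs2 by 2.25 and 0.16. Groups of 3 livers are too small for a check of single outlying samples by rule.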

How the results depend on the processing

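No gene passed on the 6 arrays, without any single liver, or with centring, quantile normalisation, the dim filter, the mean of probe sets or trended robust moderation, whereas all 24 arrays called 57 and array weights 2. The 2-fold rule gave 75 genes, 137 with all 24 arrays and 50 to 186 without single livers. Centring moved the median of all genes from -0.003 to -0.096 and the 2-fold split from 36 higher and 39 lower to 22 and 52. With the replicate block, 0 genes passed and the 2-fold rule gave 71, so the block changed no call. The DEN difference called 0 genes, and 0 to 1 without single livers, the 1 without NEMO replicate 1. The ligation difference called 12 genes, 22 with all 24 arrays, 1 with the dim filter and 3 to 35 without single livers, the 3 without control replicate 1 and the 35 without control replicate 3. The 52-week difference called 451, 913 with centring (634 higher and 279 lower at 8 weeks, against 99 and 352) and 174 to 708 without single livers, the 174 without the 52-week control replicate 3 and the 708 without NEMO replicate 3. The probe sets without a single symbol gave 0 to 1 calls without single livers. Of 125 named genes, 122 never reversed. Most were chosen by small p, and a gene whose groups do not overlap cannot reverse when 1 liver is left out. Mapk9 went from 0.0501 to -0.0421 with centring, to -0.0544 with array weights and to between -0.123 and 0.146 without single livers. Kdm5c went from 0.065 to -0.0271 with centring and to between -0.00324 and 0.108 without single livers, and Kdm6a from 0.0961 to between -0.0729 and 0.189. The cause was not tested. List medians moved by more than the spread between replicates in 9 of 490 cases. Array number and signal near background limit what could be called for dim genes.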

Other observations

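These genes were picked out after their values were seen. Nuclear genes for mitochondrial proteins were among those that fell in the all-array fit. Their share of the 38 genes that fell was not set against their share of all genes tested. No enrichment can therefore be read from them. Mdh2, the mitochondrial malate dehydrogenase, read 10.87, 11.07 and 10.73 in NEMO livers and 10.26, 10.05 and 10.20 in NEMO/JNK1 livers (limma adjusted p = 0.0051). Ndufs3, a subunit of respiratory complex I, read 9.87, 10.40 and 9.86 against 9.33, 9.20 and 9.38. Others included Coq5 (-1.07) of coenzyme Q synthesis, Bcl2l13 (-1.01), a protein of the outer membrane, Nnt (-0.84), the transhydrogenase of the inner membrane, and Lrpprc (-0.72), a regulator of mitochondrial messenger RNA. They also included Grpel1 (-0.66) and Pmpcb (-0.72) of protein import, Atp5k (-0.79) of ATP synthase, and Slc25a12 (-0.66), the aspartate-glutamate carrier. Each of these genes was lower in all 3 double knockouts than in every NEMO liver. That is not particular to them, since the groups did not overlap for any of the 57 genes of the all-array fit. Gpt, alanine aminotransferase, read 9.75, 9.76 and 9.38 against 8.78, 8.27 and 7.88 (adjusted p = 0.0051).

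Nnt, the mitochondrial transhydrogenase known for a deletion in one C57BL/6 substrain, read 9.27, 8.67 and 9.40 in NEMO livers and 8.27, 8.33 and 8.21 in NEMO/JNK1 livers. Its log2 difference of -0.84 passed the all-array fit (limma adjusted p = 0.0356), and its level in the other 18 livers ran from 8.12 to 9.30. A probe set with no gene in the annotation (10399588) was the only 1 called on the 6 arrays, among 14338 probe sets without a single symbol, with 923 at an unadjusted p under 0.05. It read 3.09, 2.90 and 3.18 in NEMO livers and 6.19, 6.22 and 6.12 in NEMO/JNK1 livers (log2 difference 3.12, SE 0.13, limma adjusted p = 0.00314). In the other livers it was low, at 3.31 to 3.77, in the 3 controls after ligation and at 5.98 to 7.34 in the remaining 15.

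Other genes past the 2-fold rule encode secreted or signalling proteins. Irs2, an insulin receptor substrate, read 6.70, 6.24 and 6.52 in NEMO livers and 7.71, 7.35 and 8.58 in NEMO/JNK1 livers. Igfbp1, a secreted binding protein for IGF1, read 10.80, 8.84 and 9.81 against 11.62, 11.78 and 11.13. Serpina7, the thyroxine-binding globulin, read 7.88, 6.50 and 7.75 against 9.80, 8.73 and 9.63 and rose in the all-array fit (limma adjusted p = 0.0356). Casp4, the inflammatory caspase that senses cytosolic lipopolysaccharide, read 5.68, 5.16 and 4.39 against 6.79, 6.71 and 6.17 (adjusted p = 0.0356).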
